A study of Homo sapiens with 27 samples.

Results

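Interferon-stimulated genes are the genes that cells switch on when they sense interferon, and 43 of them were followed here, gene by gene, through *KDM5C* and *KDM5D* mutant 786-O cells. They were taken as the rows of the gene count table whose Ensembl identifiers map to a fixed list of symbols, all 43 of which were found among the 57773 identifiers of the table. Of these, 42 had enough counts to be tested together with 17016 genes in all, and *IFITM1*, with 0 to 9 counts in each library, did not. 786-O is an established clear cell renal cell carcinoma (ccRCC) cell line. Bulk RNA sequencing was done on 27 libraries, 3 from each of 9 cell populations. One population carried a control sgRNA (sgCtrl). One each carried sgKDM5C #4 or sgKDM5C #5, which target *KDM5C*, and one each carried sgKDM5D #2 or sgKDM5D #4, which target *KDM5D*. The other populations carried 1 sgRNA against each gene (sgKDM5C #4/sgKDM5D #2, sgKDM5C #4/sgKDM5D #4, sgKDM5C #5/sgKDM5D #2 and sgKDM5C #5/sgKDM5D #4). Every population, sgCtrl included, was a pool of cells infected with lentiviruses that expressed spCas9 and an sgRNA and selected with an antibiotic, so the libraries describe mixed pools and not clones. The sgKDM5C sgRNAs cut the same exon at overlapping sites, whereas the sgKDM5D sgRNAs target different exons. The labels do not say whether the 3 libraries of a population came from separate cultures, so that p-values measure the spread between these libraries, which may be technical.

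Interferons bind receptors on the cell surface that activate JAK kinases, which phosphorylate STAT proteins. Phosphorylated STAT proteins act with IRF9 at the interferon-stimulated response element in the promoters of many of these genes. Their products limit viruses by degrading or sequestering viral RNA, blocking entry and budding, or modifying proteins with the ubiquitin-like ISG15. Many epithelial and tumour cells also transcribe them at a low level with no interferon added. KDM5C, encoded on the X chromosome, and KDM5D, its homologue encoded on the Y chromosome, are demethylases that remove methyl groups from lysine 4 of histone H3, a mark of active promoters and enhancers.

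Total counts ranged from 20172482 to 43383929 per library (median 26290323). A count of 3, the limit used for a gene listed at 0, corresponds to 0.0698 to 0.143 CPM (counts scaled to a common library size). Intervals and limits given below cover counting error only. In 1 library each of sgCtrl, sgKDM5C #5, sgKDM5C #4/sgKDM5D #2 and sgKDM5C #4/sgKDM5D #4, expression stood apart from the other libraries of the same population, on a first component that held 37.6% of the variance within populations. They were sgCtrl replicate 2, sgKDM5C #5 replicate 2, sgKDM5C #4/sgKDM5D #2 replicate 1 and sgKDM5C #4/sgKDM5D #4 replicate 3. These 4 stand last in the order of the deposited counts. Changes against sgCtrl that no longer passed the test without these 4 libraries are given with their value without them. All 8 markers of renal epithelium and ccRCC were expressed (summed 3281 to 3979.6 CPM), and the 6 leukocyte markers summed to 0.0674 to 0.802 CPM, with 3 of them at or under 3 counts in every library. *KDM5C* had a mean of 124 CPM in sgCtrl and 33.2 to 43.6 CPM in the 6 populations with an sgKDM5C sgRNA, in each of which it fell (-1.91 to -1.51 on the log2 scale). *KDM5D* had a mean of 12.8 CPM in sgCtrl, 34.7 CPM in the libraries labelled sgKDM5D #2 and 19.9 CPM in those labelled sgKDM5D #4. Its RNA was thus higher and not lower (1.44 ± 0.08, adjusted p = 3.5e-12 and 0.64 ± 0.08, adjusted p = 4.9e-07). It also rose with sgKDM5C #4 (28.4 CPM) and sgKDM5C #5 (44.6 CPM), which carry no sgKDM5D sgRNA, and in the 4 double populations (25.4 to 44.3 CPM). The RNA level therefore does not check the sgKDM5D labels of the single or the double populations, on which every direction given below for these libraries rests.

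The genes differed widely in their level in sgCtrl cells. Per kilobase of canonical transcript, *LGALS3BP*, a secreted glycoprotein, had 208 CPM per kb (SD 8.40, n = 3), *BST2*, the tetherin that holds budding virus at the membrane, had 200.4 (SD 22.1) and *IFITM3* had 129.8 (SD 15.6). *CMPK2* (0.0671 CPM per kb, SD 0.0216), *EPSTI1* (0.0935, SD 0.0215), *MX2* (0.123, SD 0.0198), *OAS2* (0.128, SD 0.0436) and *RSAD2* (0.138, SD 0.0346) were the lowest of the tested genes. The ratio of the highest to the lowest population mean was 48.7 for *IFITM2*, but only 1.26 for the phospholipid scramblase *PLSCR1* and 1.32 for *IFIT5*. No such ratio is given for genes such as *OAS2* and *CMPK2*, whose lowest populations held 5 and 3 counts in all. Of the 42 genes, 14 had their highest mean in sgKDM5C #4/sgKDM5D #4, 12 in the libraries labelled sgKDM5D #2 and 9 in those labelled sgKDM5D #4. Of the lowest means, 13 were in sgKDM5C #5, 13 in sgKDM5C #5/sgKDM5D #4 and 12 in the libraries labelled sgKDM5D #4. The same counts were not made over all tested genes, so they describe the 42 genes without setting them apart. The summed level of all the genes ranged from 1528 to 1667 CPM in sgCtrl, from 1277 to 1378 CPM in sgKDM5C #5 and from 1709 to 1835 CPM in sgKDM5C #4/sgKDM5D #4. In bulk RNA, a change in the number of cells that express a gene and a change in the RNA per cell cannot be told apart.

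**Figure D1:**
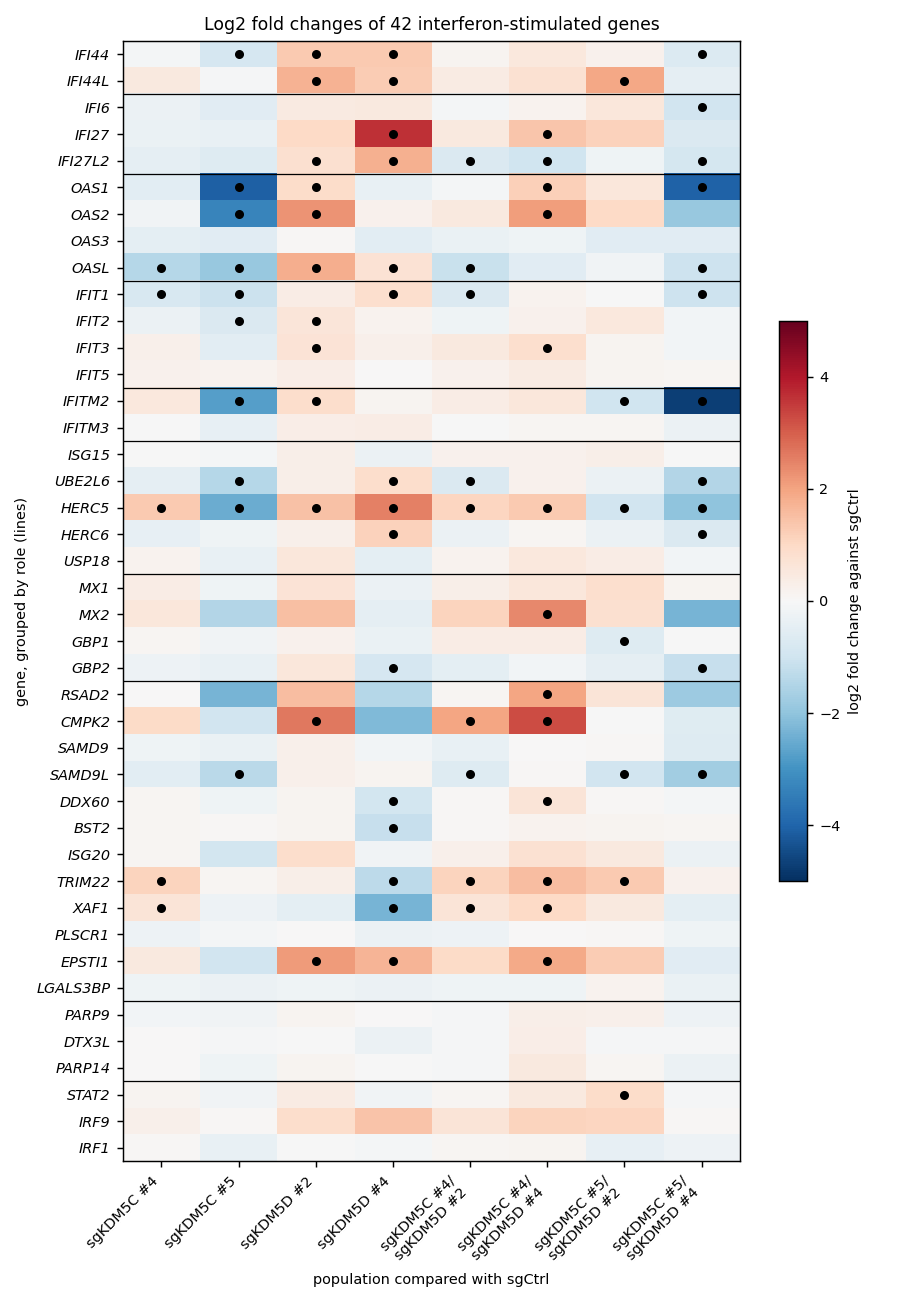
Log2 fold change against sgCtrl of the 42 tested genes (rows, grouped by role) in the 8 mutant populations (columns), with a colour scale from -5 to 5 and a black dot where a gene passed the test. Red and blue lie side by side in most families: 12 genes are higher with sgKDM5D #2, while 12 genes are lower with sgKDM5C #5/sgKDM5D #4.

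Each mutant population was compared with sgCtrl in one edgeR quasi-likelihood fit over all 27 libraries. A gene counted as changed at a Benjamini-Hochberg adjusted p under 0.001 over all 17016 genes together with a change of over 1.5-fold. Values after ± are standard errors of log2 fold changes, and all 8 comparisons share the same 3 sgCtrl libraries. With sgKDM5C #4, 3 genes rose and 2 fell (in all 17016 genes, 3.21% rose and 1.77% fell), and the median log2 fold change of the 42 genes was 0.00. With sgKDM5C #5, 0 rose and 10 fell (all genes 2.03% and 2.97%), with a median of -0.39. In the libraries labelled sgKDM5D #2, 12 rose and 0 fell (all genes 1.89% and 1.34%), with a median of 0.43. In those labelled sgKDM5D #4, 10 rose and 5 fell (all genes 10.7% and 7.44%), with a median of -0.06. The balance of rises and falls thus differed among the populations with 1 sgRNA, also between sgRNAs against the same gene. This balance was not tested. Each sgRNA is 1 pool, so differences between *KDM5C* and *KDM5D* or between sgRNAs cannot be told apart from differences between pools.

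The double mutant populations also differed among themselves. In sgKDM5C #4/sgKDM5D #2, 4 genes rose and 5 fell (all genes 3.83% and 2.23%), and the 42 genes had a median of 0.10 on the log2 scale. Of the genes, 12 rose and 1 fell in sgKDM5C #4/sgKDM5D #4 (all genes 5.86% and 3.24%; median 0.44). By contrast, 0 rose and 12 fell in sgKDM5C #5/sgKDM5D #4 (all genes 3.30% and 3.87%; median -0.46). In sgKDM5C #5/sgKDM5D #2, 3 rose and 4 fell (all genes 7.92% and 4.77%; median 0.14). As a share of the 42 genes this is 16.7%, close to the 12.7% of all genes called there. The median over all genes lay between -0.01 and 0.02 in each of the 8 comparisons. Over the 8 comparisons, 27 of the 42 genes were called at least once (64.3%, against 32.4% of all genes). Of these, 14 were called higher in 1 or more populations and lower in 1 or more others (33.3%, against 4.0% of all genes). The libraries of the populations compared did not overlap for any of the 83 calls against sgCtrl. The calls were selected for large changes in these same libraries, so this is not separate support for them. When the fit held only the 2 populations compared, 51 of the 83 calls held, and the other genes kept their direction with adjusted p-values of up to 0.029. The calls lost in this way were *IFI44*, *IFIT2*, *OAS2*, *OASL* and *SAMD9L* with sgKDM5C #5. With the sgKDM5D labels they were *IFIT2*, *IFIT3*, *OAS1*, *EPSTI1*, *IFI27L2* and *CMPK2* (#2) and *OASL* and *EPSTI1* (#4). In the double mutants they were all calls in sgKDM5C #4/sgKDM5D #2 but *TRIM22*, and *OAS1*, *OAS2*, *EPSTI1*, *IFI27*, *IFI27L2* and *DDX60* in sgKDM5C #4/sgKDM5D #4. The last were *HERC5* in sgKDM5C #5/sgKDM5D #2 and *IFI44*, *OASL*, *IFI27L2* and *HERC6* in sgKDM5C #5/sgKDM5D #4.

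In all, 6 genes rose in the libraries of both sgKDM5D labels: *IFI44*, *IFI44L*, *IFI27L2*, *OASL*, *HERC5* and *EPSTI1* (14.3% of the 42, against 0.958% of all genes). *IFI44*, *IFI44L*, *OASL* and *IFI27L2* had been singled out by the study from these same libraries, so they are not independent evidence of this direction. Only *OASL* and *IFIT1* fell with both sgKDM5C sgRNAs (4.76%, against 0.893%), and these also stand in the study's lists from these libraries. *HERC5* was the 1 gene that moved in opposite directions with the sgKDM5C sgRNAs (2.38%, against 0.112% of all genes). With the sgKDM5D labels, 0 of the 42 were called in opposite directions (0.505% of all genes were). None of the 42 rose with both sgKDM5C sgRNAs, and none fell in the libraries of both sgKDM5D labels. None was called in the same direction in all 4 double mutant populations, where 1.12% of all genes were called higher and 0.482% lower.

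**Figure D2:**
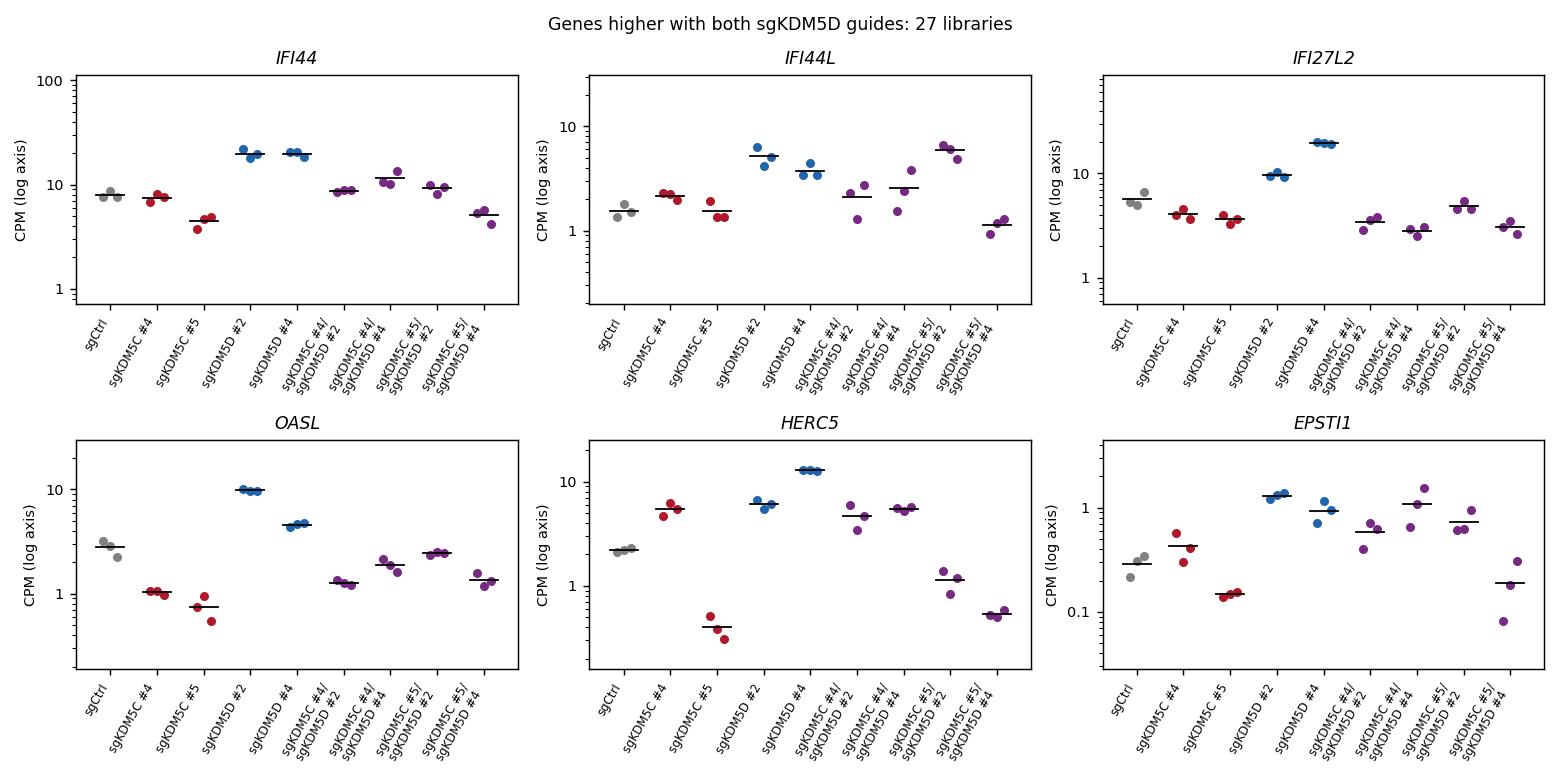
CPM on a log axis of the 6 genes called higher in the libraries of both sgKDM5D labels, with 1 point per library and a black bar at the mean of each population (grey sgCtrl, red sgKDM5C, blue sgKDM5D, purple double mutants). For each gene all blue points lie above the grey points, as for *IFI44* with 18 to 21.8 CPM against 7.63 to 8.63 CPM. All purple points lie below the blue points for *IFI44*, *IFI27L2* and *OASL*. For *IFI44L*, *HERC5* and *EPSTI1* the purple points of some populations overlap with the blue points.

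Promoter sequence was available for 35 of the 43 genes in the RefSeq table (GRCh38.p14), as windows from 250 bases before to 50 after a start site. The letters TTTCNNTTTC, the core of the interferon-stimulated response element, were searched on both strands. They occurred in a window of 25 of these 35 genes (71.4%), against 3.93% of the 11414 tested genes with an entry and 3.57% of all 35116 windows. Of the 24 tested genes with TTTCNNTTTC, 12 were called in at least 1 population and 5 rose in the libraries labelled sgKDM5D #2. Of the 10 tested genes without it in these windows, 8 were called at least once and 3 rose there. Of all genes, 32.4% were called at least once and 1.89% rose there. Both sets also held genes that fell with sgKDM5C #5 (3 and 3, all genes 2.97%) and with the sgKDM5D #4 label (2 and 1, all genes 7.44%). With the sgKDM5D #4 label, 6 genes with the letters and 3 without them rose (all genes 10.7%). A match is a description of the letters and not a site of binding. The windows around the matches are printed for genes with different patterns, on the strand of the gene and with the matching letters in capitals. They are *IFI44*, *IFI44L*, *HERC5* and *EPSTI1*, which rose with both sgKDM5D labels, and *IFIT1*, which fell with both sgKDM5C sgRNAs. Then come *BST2* and *DDX60*, which fell only with the sgKDM5D #4 label among populations with 1 sgRNA, and *OAS3*, which was not called in any population.
IFI44, chr1:78649741-78649788, plus strand: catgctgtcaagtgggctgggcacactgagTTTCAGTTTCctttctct
IFI44L, chr1:78620254-78620414, plus strand: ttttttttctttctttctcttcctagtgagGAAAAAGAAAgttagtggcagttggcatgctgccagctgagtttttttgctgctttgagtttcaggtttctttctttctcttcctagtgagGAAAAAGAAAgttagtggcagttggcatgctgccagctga
HERC5, chr4:88456964-88457084, plus strand: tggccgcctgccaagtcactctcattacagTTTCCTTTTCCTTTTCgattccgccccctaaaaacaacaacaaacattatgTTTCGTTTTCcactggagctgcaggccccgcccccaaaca
EPSTI1, chr13:42992252-42992321, minus strand: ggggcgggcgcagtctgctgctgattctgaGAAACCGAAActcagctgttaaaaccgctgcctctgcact
IFIT1, chr10:89392477-89392559, plus strand: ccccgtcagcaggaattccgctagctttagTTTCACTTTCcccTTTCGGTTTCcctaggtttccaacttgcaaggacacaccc
BST2, chr19:17405715-17405790, minus strand: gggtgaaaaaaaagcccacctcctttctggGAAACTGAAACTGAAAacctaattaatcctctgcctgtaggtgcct
DDX60, chr4:168318766-168318870, minus strand: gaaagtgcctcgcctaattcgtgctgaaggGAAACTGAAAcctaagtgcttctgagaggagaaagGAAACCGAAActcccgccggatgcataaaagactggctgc
OAS3, chr12:112938301-112938473, plus strand: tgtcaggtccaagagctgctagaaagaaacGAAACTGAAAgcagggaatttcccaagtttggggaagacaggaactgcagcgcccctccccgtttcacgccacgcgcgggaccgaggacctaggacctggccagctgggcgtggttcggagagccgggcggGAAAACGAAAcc
In these genes the matches lie between 12 and 164 bases before the start. The adjacent capitals of *HERC5* and *BST2* are overlapping matches.

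*IFI44* (ENSG00000137965, chromosome 1, 79115481 to 79129763, plus strand; positions of genes are from GRCh37) and its neighbour *IFI44L* (ENSG00000137959, chromosome 1, 79085587 to 79111830, plus strand), which lies 3.65 kb upstream, encode related cytoplasmic proteins made in response to type I interferon. *IFI44* was detected at 7.63, 8.63 and 7.63 CPM in the sgCtrl libraries, 6.76, 8.06 and 7.63 CPM with sgKDM5C #4 and 3.73, 4.72 and 4.92 CPM with sgKDM5C #5. The libraries labelled sgKDM5D had 21.8, 18 and 19.5 CPM (#2) and 20.4, 20.6 and 18.5 CPM (#4). All 6 libraries labelled sgKDM5D lay above, and the sgKDM5C #5 libraries below, every sgCtrl library, while those of sgKDM5C #4 overlapped with sgCtrl. Compared with sgCtrl, *IFI44* rose in the libraries labelled sgKDM5D #2 (log2 fold change 1.31 ± 0.12, adjusted p = 1.9e-08) and sgKDM5D #4 (1.32 ± 0.12, adjusted p = 1.3e-09). It fell with sgKDM5C #5 (-0.83 ± 0.13, adjusted p = 3.8e-05). Among the double mutants, *IFI44* was at 8.46, 8.96 and 8.81 CPM in sgKDM5C #4/sgKDM5D #2 and at 10.6, 10.2 and 13.5 CPM in sgKDM5C #4/sgKDM5D #4. The levels with sgKDM5C #5 were 10, 8.08 and 9.50 CPM in sgKDM5C #5/sgKDM5D #2 and 5.35, 5.67 and 4.14 CPM in sgKDM5C #5/sgKDM5D #4. All 12 of these libraries were below the lowest library labelled sgKDM5D. Only sgKDM5C #5/sgKDM5D #4 was called against sgCtrl (-0.67 ± 0.13, adjusted p = 3.8e-04). That call was lost without sgCtrl replicate 2 (-0.60), sgCtrl replicate 3 (-0.70), sgKDM5C #5/sgKDM5D #4 replicate 1 (-0.71) or sgKDM5C #5/sgKDM5D #4 replicate 3 (-0.53; adjusted p up to 0.0072). It also did not hold without the 4 libraries that stand apart (-0.62, adjusted p = 0.0015) or after the median of the 50 neighbouring genes was removed (-0.47, adjusted p = 0.011).

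*IFI44L* was low in sgCtrl, at 1.34, 1.78 and 1.5 CPM, and had 2.28, 2.24 and 1.98 CPM with sgKDM5C #4 and 1.91, 1.36 and 1.35 CPM with sgKDM5C #5. In the libraries labelled sgKDM5D it reached 6.37, 4.14 and 5.02 CPM (#2) and 3.43, 4.41 and 3.39 CPM (#4), all above every sgCtrl and sgKDM5C library. It rose with both labels (1.74 ± 0.26, adjusted p = 2.6e-05 for #2 and 1.27 ± 0.27, adjusted p = 2.8e-04 for #4). The second of these calls was lost without sgCtrl replicate 1 (1.19), sgCtrl replicate 3 (1.25) or sgKDM5D #4 replicate 2 (1.13; adjusted p up to 0.0032). *IFI44L* had 2.27, 1.28 and 2.74 CPM in sgKDM5C #4/sgKDM5D #2 and 1.55, 2.39 and 3.81 CPM in sgKDM5C #4/sgKDM5D #4. It had 6.65, 6.11 and 4.87 CPM in sgKDM5C #5/sgKDM5D #2 and 0.932, 1.19 and 1.30 CPM in sgKDM5C #5/sgKDM5D #4. *IFI44L* therefore remained high in sgKDM5C #5/sgKDM5D #2, as the only double mutant population called (1.92 ± 0.26, adjusted p = 1.3e-06). There the adjacent *IFI44* was not called (0.21 ± 0.13, adjusted p = 0.19).

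*IFI6*, *IFI27* and *IFI27L2* encode small hydrophobic proteins of mitochondrial and other inner membranes. *IFI27L2* (ENSG00000119632, chromosome 14, 94594116 to 94596590, minus strand) had 5.37, 4.93 and 6.66 CPM in sgCtrl, 9.49, 10.4 and 9.31 CPM in the libraries labelled sgKDM5D #2 and 20, 19.5 and 19.3 CPM in those labelled sgKDM5D #4. It rose in both (0.79 ± 0.13, adjusted p = 7.9e-05 and 1.79 ± 0.13, adjusted p = 5.2e-12). The first call was lost without sgCtrl replicate 2 (0.70; adjusted p = 0.0011). The sgKDM5C populations had 3.99, 4.61 and 3.63 CPM (#4) and 4.01, 3.3 and 3.63 CPM (#5), below the sgCtrl libraries but not called. Levels of *IFI27L2* were 2.84, 3.61 and 3.82 CPM in sgKDM5C #4/sgKDM5D #2 and 2.95, 2.49 and 3.05 CPM in sgKDM5C #4/sgKDM5D #4. Levels in sgKDM5C #5/sgKDM5D #2 were 4.53, 5.49 and 4.58 CPM and those in sgKDM5C #5/sgKDM5D #4 were 3.08, 3.48 and 2.63 CPM. The direction was therefore opposite in 3 double populations, where *IFI27L2* fell below sgCtrl. The changes were -0.73 ± 0.14, adjusted p = 2.8e-04 in sgKDM5C #4/sgKDM5D #2, -0.99 ± 0.14, adjusted p = 3.3e-06 in sgKDM5C #4/sgKDM5D #4 and -0.89 ± 0.14, adjusted p = 2.4e-05 in sgKDM5C #5/sgKDM5D #4. The first of these calls was lost without sgCtrl replicate 3 (-0.59) or sgKDM5C #4/sgKDM5D #2 replicate 1 (-0.61; adjusted p up to 0.0048) and without the 4 libraries that stand apart (-0.70, adjusted p = 0.0025).

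*IFI27*, 11.1 kb from *IFI27L2* on chromosome 14, had a mean of 0.712 CPM in sgCtrl and 9.03 CPM in the libraries labelled sgKDM5D #4 (3.65 ± 0.27, adjusted p = 1.9e-11), with 7.62, 10.1 and 9.30 CPM in the 3 libraries. The median log2 fold change of the 50 genes around it was 0.58 there, and *IFI27* and *IFI27L2* remained called after it was removed. With the sgKDM5D #2 label *IFI27* had 1.44 CPM and was not called (1.0 ± 0.32, adjusted p = 0.025). It was also called in sgKDM5C #4/sgKDM5D #4 (1.37 ± 0.30, adjusted p = 7.9e-04), but this call was lost in 17 of the 27 fits that left out 1 library (log2 fold changes 0.98 to 1.58). It was lowest (0.98, adjusted p = 0.019) without sgKDM5C #4/sgKDM5D #4 replicate 3, which is 1 of the 4 libraries that stand apart. Without all 4 it was 1.03 (adjusted p = 0.022), and after the median of the neighbouring genes was removed it was 1.25 (adjusted p = 0.0025). *IFI6*, at 8.22 CPM in sgCtrl, fell in sgKDM5C #5/sgKDM5D #4 to 4.23 CPM (-0.96 ± 0.19, adjusted p = 2.6e-04). This call was lost without sgCtrl replicate 2 (-0.96), sgCtrl replicate 3 (-0.86), sgKDM5C #5/sgKDM5D #4 replicate 2 (-0.91) or sgKDM5C #5/sgKDM5D #4 replicate 3 (-0.87; adjusted p up to 0.0038).

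OAS1, OAS2 and OAS3 are enzymes that make oligoadenylates when they bind double-stranded RNA and so activate RNase L, and their genes lie next to each other on chromosome 12. *OAS1* (ENSG00000089127, chromosome 12, 113343661 to 113371024, plus strand) had 1.78, 2.53 and 2.31 CPM in sgCtrl, 1.39, 1.84 and 1.35 CPM with sgKDM5C #4 and only 0.0932, 0.0885 and 0.184 CPM with sgKDM5C #5. The last of these lie near the 3-count limit, and *OAS1* fell with sgKDM5C #5 (-4.10 ± 0.30, adjusted p = 7.9e-11) but was not called with sgKDM5C #4 (-0.52 ± 0.19, adjusted p = 0.053). In the libraries labelled sgKDM5D it had 4.17, 3.61 and 4.67 CPM (#2) and 1.47, 1.64 and 2.06 CPM (#4). It rose with the sgKDM5D #2 label (0.90 ± 0.18, adjusted p = 6.0e-04). This was lost without sgCtrl replicate 1 (0.78), sgCtrl replicate 3 (0.93), sgKDM5D #2 replicate 1 (0.90) or sgKDM5D #2 replicate 3 (0.81; adjusted p up to 0.0062). The call also did not hold after the median of the neighbouring genes was removed (0.88, adjusted p = 0.001, not under the threshold). Among the double mutants, *OAS1* was at 1.64, 2.44 and 2.25 CPM in sgKDM5C #4/sgKDM5D #2 and at 4.28, 5.29 and 5.86 CPM in sgKDM5C #4/sgKDM5D #4. The levels with sgKDM5C #5 were 3.41, 3.18 and 3.34 CPM in sgKDM5C #5/sgKDM5D #2 and 0.162, 0.0915 and 0.137 CPM in sgKDM5C #5/sgKDM5D #4. The last pair share sgKDM5C #5 and did not overlap. *OAS1* stayed near the limit in sgKDM5C #5/sgKDM5D #4 (-4.03 ± 0.31, adjusted p = 1.2e-10 against sgCtrl) and was not called in sgKDM5C #5/sgKDM5D #2 (0.58 ± 0.18, adjusted p = 0.012). It rose in sgKDM5C #4/sgKDM5D #4 (1.21 ± 0.17, adjusted p = 4.0e-06).

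*OAS2* (ENSG00000111335, chromosome 12, 113416200 to 113449528, plus strand) was lower still, at 0.607, 0.788 and 0.385 CPM in sgCtrl, 0.448, 0.629 and 0.486 CPM with sgKDM5C #4 and 0.0466, 0.0590 and 0.0615 CPM with sgKDM5C #5. The sgKDM5C #5 libraries together held 5 counts against 47 in sgCtrl, a ratio of 10.6 (exact 95% interval 4.22 to 34.0). The fitted change was called (-3.29 ± 0.57, adjusted p = 9.7e-05). The call was lost without sgCtrl replicate 2 (-3.01) or sgKDM5C #5 replicate 2 (-3.32; adjusted p up to 0.0012), and also without the 4 libraries that stand apart (-3.05, adjusted p = 0.0026). It had 3.36, 2.42 and 2.78 CPM with the sgKDM5D #2 label (2.25 ± 0.30, adjusted p = 6.0e-06) and 0.401, 0.875 and 0.772 CPM with the sgKDM5D #4 label (0.21 ± 0.36, adjusted p = 0.67). *OAS2* had 0.702, 0.744 and 1.12 CPM in sgKDM5C #4/sgKDM5D #2 and 1.76, 2.29 and 3.60 CPM in sgKDM5C #4/sgKDM5D #4. It had 0.988, 1.26 and 1.34 CPM in sgKDM5C #5/sgKDM5D #2 and 0.0810, 0.320 and 0.103 CPM in sgKDM5C #5/sgKDM5D #4. Of these, only sgKDM5C #4/sgKDM5D #4 was called (2.09 ± 0.30, adjusted p = 4.4e-06). *OAS3*, which lies between *OAS1* and *OAS2*, 4.83 kb from the one and 1.93 kb from the other, was lower with sgKDM5C #5 by less. Its mean was 189 CPM in sgCtrl and 127 CPM with sgKDM5C #5, with no overlap (-0.57 ± 0.07, adjusted p = 1.2e-06), which is under the 1.5-fold threshold. It lay between 127 and 194 CPM in all populations, and it was not called against sgCtrl in any.

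*OASL* (ENSG00000135114, chromosome 12, 121455566 to 121477049, minus strand) encodes an OAS relative that does not make oligoadenylates and assists the RNA sensor RIG-I. It had 3.21, 2.88 and 2.27 CPM in sgCtrl, 1.06, 1.05 and 0.973 CPM with sgKDM5C #4 and 0.746, 0.944 and 0.553 CPM with sgKDM5C #5. It fell in both (-1.43 ± 0.16, adjusted p = 2.7e-07 and -1.88 ± 0.17, adjusted p = 6.3e-09). It rose in the libraries labelled sgKDM5D #2, to 10.2, 9.56 and 9.70 CPM (1.82 ± 0.14, adjusted p = 3.8e-10). It also rose in those labelled sgKDM5D #4, to 4.37, 4.65 and 4.76 CPM (0.72 ± 0.14, adjusted p = 1.2e-04), and this call was lost without sgCtrl replicate 3 (0.60; adjusted p = 0.0021). No library overlapped between sgCtrl and any of these 4 populations. Levels of *OASL* were 1.34, 1.28 and 1.21 CPM in sgKDM5C #4/sgKDM5D #2 and 2.16, 1.89 and 1.62 CPM in sgKDM5C #4/sgKDM5D #4. Levels in sgKDM5C #5/sgKDM5D #2 were 2.35, 2.51 and 2.43 CPM and those in sgKDM5C #5/sgKDM5D #4 were 1.58, 1.19 and 1.33 CPM. All 12 of these libraries lay below the libraries labelled sgKDM5D. *OASL* fell against sgCtrl in sgKDM5C #4/sgKDM5D #2 (-1.12 ± 0.16, adjusted p = 8.6e-06) and sgKDM5C #5/sgKDM5D #4 (-1.02 ± 0.16, adjusted p = 2.4e-05).

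The IFIT proteins bind viral RNA, and their 4 genes lie side by side on chromosome 10. *IFIT1* (ENSG00000185745, chromosome 10, 91152303 to 91166244, plus strand) had 9.62, 9.93 and 11.2 CPM in sgCtrl, 5.75, 5.98 and 5.61 CPM with sgKDM5C #4 and 4.75, 5.19 and 4.73 CPM with sgKDM5C #5. It fell in both (-0.82 ± 0.12, adjusted p = 1.0e-05 and -1.06 ± 0.12, adjusted p = 2.6e-07). The libraries labelled sgKDM5D had 13.3, 11.7 and 14.7 CPM (#2, 0.37 ± 0.11, adjusted p = 0.02) and 20.5, 18 and 16.9 CPM (#4, 0.85 ± 0.11, adjusted p = 6.0e-07), all above sgCtrl. Among the double mutants, *IFIT1* was at 5.88, 5.56 and 7.42 CPM in sgKDM5C #4/sgKDM5D #2 and at 12.0, 11.0 and 12.0 CPM in sgKDM5C #4/sgKDM5D #4. The levels with sgKDM5C #5 were 9.24, 10.3 and 11.0 CPM in sgKDM5C #5/sgKDM5D #2 and 4.58, 5.95 and 4.58 CPM in sgKDM5C #5/sgKDM5D #4. It fell in sgKDM5C #4/sgKDM5D #2 (-0.71 ± 0.12, adjusted p = 6.4e-05) and sgKDM5C #5/sgKDM5D #4 (-1.03 ± 0.12, adjusted p = 3.3e-07) and was not called in the other two. The sgKDM5C #4/sgKDM5D #2 call was lost without sgKDM5C #4/sgKDM5D #2 replicate 2 (-0.63; adjusted p = 0.0011) and without the 4 libraries that stand apart (-0.69, adjusted p = 0.0019).

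*IFIT2* (ENSG00000119922, chromosome 10, 91043451 to 91069028, plus strand) had 7.84, 6.85 and 9.28 CPM in sgCtrl, 6.40, 7.01 and 6.10 CPM with sgKDM5C #4 and 5.41, 5.10 and 3.93 CPM with sgKDM5C #5. Libraries labelled sgKDM5D had 14.1, 11.1 and 11.4 CPM (#2) and 8.78, 8.82 and 9.09 CPM (#4). It fell with sgKDM5C #5 (-0.74 ± 0.13, adjusted p = 1.0e-04) and rose with the sgKDM5D #2 label (0.61 ± 0.12, adjusted p = 6.1e-04), and both calls depended on single libraries. The first was lost without sgCtrl replicate 3 (-0.61) or sgKDM5C #5 replicate 3 (-0.61; adjusted p up to 0.0019). The second was lost without sgCtrl replicate 1 (0.60), sgCtrl replicate 2 (0.52), sgKDM5D #2 replicate 1 (0.50) or sgKDM5D #2 replicate 3 (0.66; adjusted p up to 0.0083). It was lost too with the replicate number as a block (0.61, adjusted p = 0.0013) and without the 4 libraries that stand apart (0.50, adjusted p = 0.0071). *IFIT2* had 6.42, 6.66 and 7.33 CPM in sgKDM5C #4/sgKDM5D #2 and 8.41, 9.34 and 9.95 CPM in sgKDM5C #4/sgKDM5D #4. It had 10.9, 11.6 and 12.1 CPM in sgKDM5C #5/sgKDM5D #2 and 7.78, 7.41 and 6.60 CPM in sgKDM5C #5/sgKDM5D #4. None of the double populations was called. *IFIT3*, with 37.2 CPM in sgCtrl, rose with the sgKDM5D #2 label to 59.8 CPM (0.68 ± 0.10, adjusted p = 3.5e-05) and in sgKDM5C #4/sgKDM5D #4 to 67.1 CPM (0.85 ± 0.10, adjusted p = 4.2e-07). *IFIT5*, at 18.7 to 24.7 CPM, was not called in any population. Reads of the IFIT and OAS genes may be shared between similar members of each family, and the counting of such reads is not given in the sources used here.

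The IFITM proteins sit in cell membranes and block the entry of viruses. *IFITM2* (ENSG00000185201, chromosome 11, 303655 to 309397, plus strand) had 17.9, 14.8 and 19.8 CPM in sgCtrl, 26.7, 25.7 and 22.8 CPM with sgKDM5C #4 (0.52 ± 0.12, adjusted p = 0.0016) and 3.03, 2.68 and 2.06 CPM with sgKDM5C #5. The sgKDM5C populations thus lay on opposite sides of sgCtrl and only the second was called (-2.77 ± 0.14, adjusted p = 7.0e-14). The libraries labelled sgKDM5D #2 had 31.0, 35.7 and 29.7 CPM (0.88 ± 0.12, adjusted p = 5.2e-06) and those labelled sgKDM5D #4 had 19.9, 17.7 and 20.1 CPM (0.14 ± 0.12, adjusted p = 0.35). The double mutants split by their sgKDM5C sgRNA. Levels of *IFITM2* were 19.0, 24.9 and 24.2 CPM in sgKDM5C #4/sgKDM5D #2 and 25.1, 26.9 and 24.9 CPM in sgKDM5C #4/sgKDM5D #4. Levels in sgKDM5C #5/sgKDM5D #2 were 8.69, 9.30 and 8.45 CPM and those in sgKDM5C #5/sgKDM5D #4 were 0.689, 0.503 and 0.787 CPM. *IFITM2* fell in both with sgKDM5C #5 (-0.99 ± 0.12, adjusted p = 5.1e-07 and -4.69 ± 0.18, adjusted p = 1.1e-16), and sgKDM5C #5/sgKDM5D #4 gave the lowest p of any call against sgCtrl. *IFITM3*, on the other side of *IFITM1*, had 79.3 CPM in sgCtrl and 59.4 CPM with sgKDM5C #5 (-0.42 ± 0.09, adjusted p = 0.0017), and was not called against sgCtrl in any population. *IFITM2* and *IFITM3* are closely related in sequence, so how their reads were split is uncertain.

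ISG15 is joined to other proteins by the conjugating enzyme UBE2L6 and the ligase HERC5, and USP18 removes it again and restrains the interferon receptor. *ISG15* itself, at 23.1 to 34.1 CPM, and *USP18*, at 5.69 to 12.0 CPM, were not called against sgCtrl in any population. *UBE2L6* (ENSG00000156587, chromosome 11, 57319129 to 57335757, minus strand) had 15.7, 13.2 and 18 CPM in sgCtrl, 12.1, 11.2 and 10.7 CPM with sgKDM5C #4 (-0.46 ± 0.12, adjusted p = 0.0056) and 7.27, 5.07 and 5.32 CPM with sgKDM5C #5 (-1.42 ± 0.13, adjusted p = 3.4e-09). It had 19.1, 19.1 and 18.3 CPM with the sgKDM5D #2 label (0.28 ± 0.12, adjusted p = 0.099) and 27.7, 30 and 28.5 CPM with the sgKDM5D #4 label (0.88 ± 0.12, adjusted p = 5.8e-07). The last change was below the 1.5-fold threshold after the median of the neighbouring genes was removed (0.58). The sgKDM5C #5 libraries were the lowest and the libraries labelled sgKDM5D #4 the highest of these, with no overlap with sgCtrl. Among the double mutants, *UBE2L6* was at 8.76, 9.18 and 10.7 CPM in sgKDM5C #4/sgKDM5D #2 and at 16.4, 18.7 and 19.3 CPM in sgKDM5C #4/sgKDM5D #4. The levels with sgKDM5C #5 were 14.4, 12.6 and 10.9 CPM in sgKDM5C #5/sgKDM5D #2 and 5.75, 5.85 and 5.44 CPM in sgKDM5C #5/sgKDM5D #4. It fell in sgKDM5C #4/sgKDM5D #2 (-0.71 ± 0.12, adjusted p = 8.2e-05) and sgKDM5C #5/sgKDM5D #4 (-1.46 ± 0.13, adjusted p = 1.7e-09). The sgKDM5C #4/sgKDM5D #2 call was lost without sgCtrl replicate 3 (-0.60; adjusted p = 0.0015).

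*HERC5* (ENSG00000138646, chromosome 4, 89378270 to 89427314, plus strand) was called in all 8 comparisons, in both directions. Libraries of sgCtrl had 2.12, 2.23 and 2.31 CPM, those of sgKDM5C #4 had 4.69, 6.24 and 5.43 CPM and those of sgKDM5C #5 0.513, 0.384 and 0.307 CPM. The libraries labelled sgKDM5D had 6.64, 5.46 and 6.14 CPM (#2) and 13.0, 12.8 and 12.7 CPM (#4). It rose with sgKDM5C #4 (1.30 ± 0.17, adjusted p = 1.5e-06) and with both sgKDM5D labels (1.45 ± 0.17, adjusted p = 5.3e-07 and 2.53 ± 0.16, adjusted p = 7.9e-13). It fell with sgKDM5C #5 (-2.50 ± 0.24, adjusted p = 1.4e-08), with no overlap of any of these libraries with sgCtrl. *HERC5* had 5.98, 3.44 and 4.72 CPM in sgKDM5C #4/sgKDM5D #2 and 5.61, 5.23 and 5.71 CPM in sgKDM5C #4/sgKDM5D #4. It had 1.40, 0.838 and 1.19 CPM in sgKDM5C #5/sgKDM5D #2 and 0.527, 0.503 and 0.581 CPM in sgKDM5C #5/sgKDM5D #4. The double mutants thus split by their sgKDM5C sgRNA. *HERC5* rose in sgKDM5C #4/sgKDM5D #2 (1.09 ± 0.17, adjusted p = 2.3e-05) and sgKDM5C #4/sgKDM5D #4 (1.31 ± 0.17, adjusted p = 7.0e-07). It fell in sgKDM5C #5/sgKDM5D #2 (-0.94 ± 0.21, adjusted p = 5.2e-04) and sgKDM5C #5/sgKDM5D #4 (-2.03 ± 0.23, adjusted p = 1.9e-07). The sgKDM5C #5/sgKDM5D #2 call was lost without sgCtrl replicate 1 (-0.97), sgCtrl replicate 2 (-0.92), sgCtrl replicate 3 (-0.91), sgKDM5C #5/sgKDM5D #2 replicate 2 (-0.76) or sgKDM5C #5/sgKDM5D #2 replicate 3 (-0.96; adjusted p up to 0.0072). It was also lost without the 4 libraries that stand apart (-0.92, adjusted p = 0.0014) or with a term for them (-0.86, adjusted p = 0.001, not under the threshold). The same held after the median of the neighbouring genes was removed (-0.86, adjusted p = 0.0014). The sgKDM5C #4/sgKDM5D #2 call was lost without the 4 libraries that stand apart (0.86, adjusted p = 0.0028).

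The adjacent *HERC6* (ENSG00000138642, chromosome 4, 89299891 to 89364249, plus strand), 14.0 kb from *HERC5*, had 8.28, 9.73 and 9.01 CPM in sgCtrl, 7.01, 6.80 and 6.74 CPM with sgKDM5C #4 and 8.39, 7.11 and 7.72 CPM with sgKDM5C #5, neither of which was called. It rose with the sgKDM5D #4 label, to 23.5, 19.4 and 17.7 CPM (1.16 ± 0.13, adjusted p = 2.7e-08), and not with the sgKDM5D #2 label (11.2, 10.2 and 11.1 CPM, 0.27 ± 0.13, adjusted p = 0.15). Levels of *HERC6* were 8.32, 6.66 and 6.83 CPM in sgKDM5C #4/sgKDM5D #2 and 10.2, 8.36 and 10.1 CPM in sgKDM5C #4/sgKDM5D #4. Levels in sgKDM5C #5/sgKDM5D #2 were 7.60, 5.82 and 8.88 CPM and those in sgKDM5C #5/sgKDM5D #4 were 4.82, 6.13 and 5.57 CPM. Only the last fell (-0.71 ± 0.14, adjusted p = 2.7e-04). This was lost without sgCtrl replicate 2 (-0.65), sgCtrl replicate 3 (-0.71), sgKDM5C #5/sgKDM5D #4 replicate 1 (-0.63) or sgKDM5C #5/sgKDM5D #4 replicate 3 (-0.72; adjusted p up to 0.0037). It was lost as well without the 4 libraries that stand apart (-0.66, adjusted p = 0.0014) and after the median of the neighbouring genes was removed (-0.63, adjusted p = 0.0013).

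The dynamin-like GTPases MX1 and MX2 trap viral capsids, and the guanylate-binding proteins GBP1 and GBP2 are best known as targets of interferon gamma. *MX2*, at 0.420 CPM in sgCtrl, rose in sgKDM5C #4/sgKDM5D #4, to 1.65, 2.33 and 2.65 CPM (2.39 ± 0.37, adjusted p = 1.3e-05). In the libraries labelled sgKDM5D #2 it had 1.39, 1.06 and 1.20 CPM, all above sgCtrl but not called (1.52 ± 0.40, adjusted p = 0.0076). Its neighbour *MX1*, at 0.981 to 2.15 CPM, was not called in any population. *GBP2* fell from 7.06 CPM in sgCtrl to 3.95 CPM with the sgKDM5D #4 label (-0.84 ± 0.13, adjusted p = 8.7e-06) and 3.12 CPM in sgKDM5C #5/sgKDM5D #4 (-1.17 ± 0.14, adjusted p = 2.1e-07). *GBP1*, at 68.6 CPM in sgCtrl, fell in sgKDM5C #5/sgKDM5D #2 to 44 CPM (-0.64 ± 0.11, adjusted p = 4.0e-05). This change was below the 1.5-fold threshold without sgCtrl replicate 1 (-0.58) or sgKDM5C #5/sgKDM5D #2 replicate 1 (-0.56; adjusted p up to 6.5e-04). It was -0.43 (adjusted p = 0.0029) after the median of the neighbouring genes was removed.

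Among the other effectors, *TRIM22* (ENSG00000132274, chromosome 11, 5710840 to 5758319, plus strand), a ubiquitin ligase that restricts retroviruses, had 9.75, 10.7 and 11.4 CPM in sgCtrl, 21.7, 24.0 and 22.8 CPM with sgKDM5C #4 and 12.4, 10.8 and 10.5 CPM with sgKDM5C #5. It rose with the first (1.11 ± 0.11, adjusted p = 1.1e-08) and overlapped with sgCtrl in the second (0.08 ± 0.11, adjusted p = 0.67). With the sgKDM5D #2 label it had 13.4, 11.6 and 13.6 CPM (0.28 ± 0.11, adjusted p = 0.064). It fell with the sgKDM5D #4 label to 3.34, 4.48 and 5.02 CPM (-1.30 ± 0.12, adjusted p = 9.0e-10). Among the double mutants, *TRIM22* was at 22.9, 21.4 and 25.6 CPM in sgKDM5C #4/sgKDM5D #2 and at 28.5, 30.6 and 32.7 CPM in sgKDM5C #4/sgKDM5D #4. The levels with sgKDM5C #5 were 27.1, 26.1 and 26.3 CPM in sgKDM5C #5/sgKDM5D #2 and 11.5, 13.6 and 12.3 CPM in sgKDM5C #5/sgKDM5D #4. It rose in sgKDM5C #4/sgKDM5D #2 (1.13 ± 0.11, adjusted p = 5.9e-09), sgKDM5C #4/sgKDM5D #4 (1.53 ± 0.11, adjusted p = 1.4e-11) and sgKDM5C #5/sgKDM5D #2 (1.32 ± 0.11, adjusted p = 2.6e-10). In 3 of the 4 double populations *TRIM22* was thus called higher than in sgCtrl. They include sgKDM5C #4/sgKDM5D #4, which shares its sgKDM5D sgRNA with the population in which *TRIM22* fell. The libraries of sgKDM5C #5/sgKDM5D #4 also lay above every sgCtrl library, but *TRIM22* was not called there. *TRIM22* overlaps *TRIM5* on the opposite strand in the annotation.

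*XAF1* (ENSG00000132530, chromosome 17, 6658766 to 6678966, plus strand), whose product binds the apoptosis inhibitor XIAP, was called in the same direction as *TRIM22* in 4 populations. It had 9.45, 9.76 and 9.67 CPM in sgCtrl, 13.9, 15.2 and 16.4 CPM with sgKDM5C #4 and 9.09, 7.23 and 8.12 CPM with sgKDM5C #5. With the sgKDM5D labels, the libraries had 6.83, 5.86 and 8.11 CPM (#2) and 1.65, 1.89 and 2.14 CPM (#4). The libraries labelled sgKDM5D #4 lay far below all others and those of sgKDM5C #4 above them (-2.34 ± 0.14, adjusted p = 2.8e-13 and 0.66 ± 0.12, adjusted p = 1.2e-04). The median of the 50 genes around *XAF1* was 0.53 in the former comparison. *XAF1* had 14.9, 14.8 and 15.1 CPM in sgKDM5C #4/sgKDM5D #2 and 16.7, 20.5 and 19.8 CPM in sgKDM5C #4/sgKDM5D #4. It had 14.9, 14.4 and 11.3 CPM in sgKDM5C #5/sgKDM5D #2 and 6.97, 6.81 and 6.94 CPM in sgKDM5C #5/sgKDM5D #4. *XAF1* rose in sgKDM5C #4/sgKDM5D #2 (0.63 ± 0.12, adjusted p = 1.6e-04) and sgKDM5C #4/sgKDM5D #4 (0.98 ± 0.11, adjusted p = 1.8e-07). The call with sgKDM5C #4 was lost without sgKDM5C #4 replicate 3 (0.60; adjusted p = 0.0015) and after the neighbouring genes' median was removed (0.53, adjusted p = 0.0015). That in sgKDM5C #4/sgKDM5D #2 was lost without sgCtrl replicate 1 (0.62) or sgCtrl replicate 3 (0.64; adjusted p up to 0.0012). It was lost likewise without the 4 libraries that stand apart (0.64, adjusted p = 0.0022) and after the neighbours' median was removed (0.54, below 1.5-fold).

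*DDX60* (ENSG00000137628, chromosome 4, 169137442 to 169240034, minus strand), an RNA helicase that assists RIG-I, had 25.2, 32.8 and 28.3 CPM in sgCtrl, 27.2, 33.2 and 31.1 CPM with sgKDM5C #4 and 23.7, 27 and 24.4 CPM with sgKDM5C #5. Libraries with the sgKDM5D labels had 35.2, 29.9 and 30.4 CPM (#2) and 16.2, 17.1 and 11.9 CPM (#4). Only the last lay wholly apart from and below sgCtrl (-0.93 ± 0.14, adjusted p = 2.4e-06), and there the median of the 50 neighbouring genes was -0.67. After that median was removed, the change of *DDX60* was -0.26 (adjusted p = 0.14). Levels of *DDX60* were 34.3, 26.1 and 30.3 CPM in sgKDM5C #4/sgKDM5D #2 and 43.6, 43.7 and 49.5 CPM in sgKDM5C #4/sgKDM5D #4. Levels in sgKDM5C #5/sgKDM5D #2 were 35.7, 24.5 and 29.8 CPM and those in sgKDM5C #5/sgKDM5D #4 were 26.9, 25.7 and 27.7 CPM. *DDX60* rose in sgKDM5C #4/sgKDM5D #4 (0.66 ± 0.13, adjusted p = 2.3e-04), a call lost without sgCtrl replicate 1 (0.58), sgCtrl replicate 3 (0.65) or sgKDM5C #4/sgKDM5D #4 replicate 3 (0.61; adjusted p up to 0.0031). *BST2* was at 219, 176 and 207 CPM in sgCtrl and 87.7, 95.3 and 84.7 CPM with the sgKDM5D #4 label (-1.17 ± 0.08, adjusted p = 3.7e-12). The median of the 50 genes around it was -0.07 there. Its means in all the other mutant populations were between 208 and 224 CPM, and none was called.

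**Figure D3:**
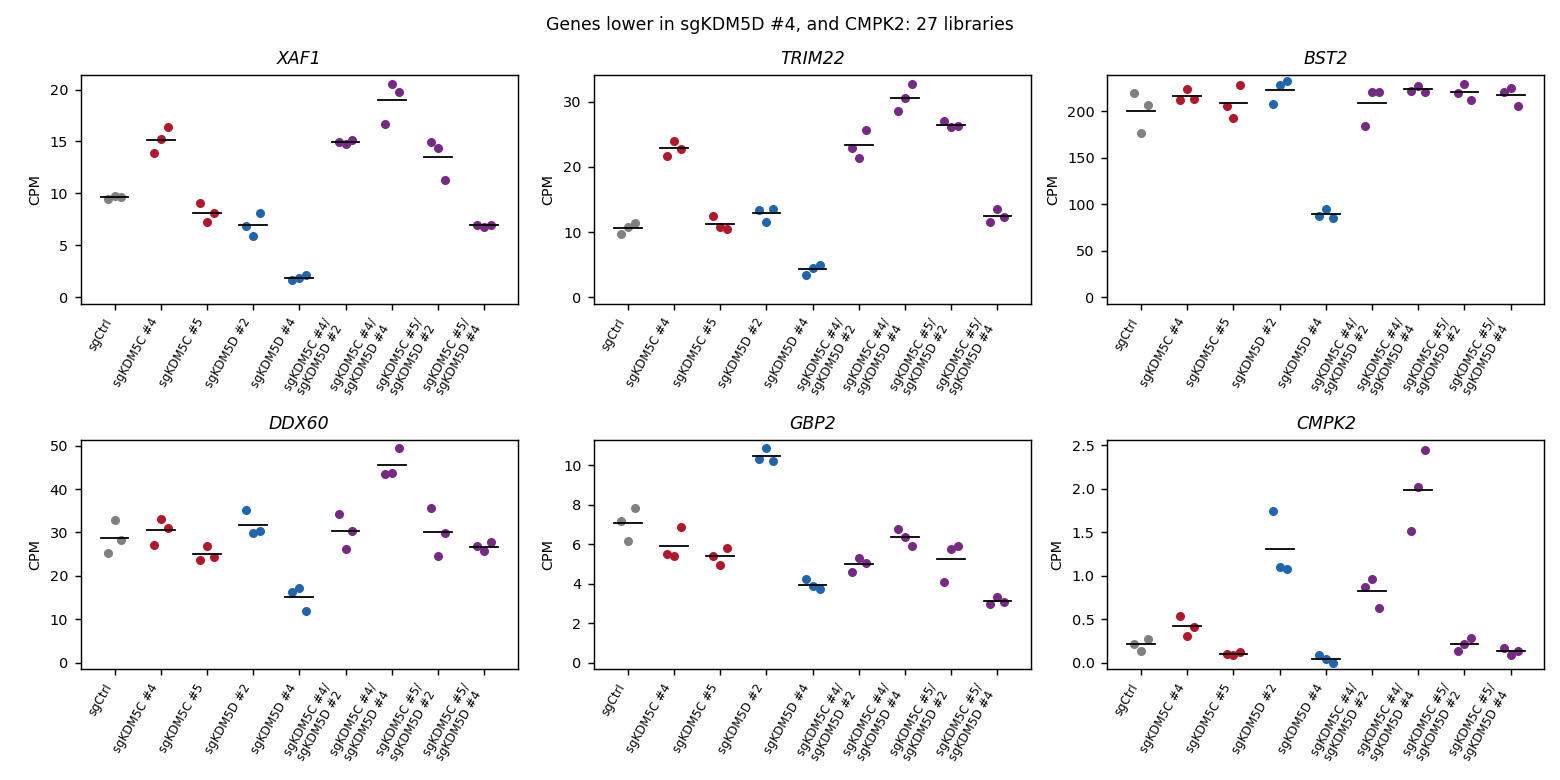
CPM on linear axes from 0 of *XAF1*, *TRIM22*, *BST2*, *DDX60*, *GBP2* and *CMPK2*, with 1 point per library and a black bar at each mean (grey sgCtrl, red sgKDM5C, blue sgKDM5D, purple double mutants). In sgKDM5D #4 the points are the lowest or among the lowest in each panel, as for *XAF1* with 1.65 to 2.14 CPM against 9.45 to 9.76 CPM in sgCtrl, while the points of sgKDM5C #4/sgKDM5D #4 are high for *XAF1* and *TRIM22*.

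*EPSTI1* (ENSG00000133106, chromosome 13, 43460524 to 43566407, minus strand), first described at the border of breast tumours and stroma, was close to the limit of detection. It had 0.217, 0.308 and 0.347 CPM in sgCtrl, 0.571, 0.303 and 0.412 CPM with sgKDM5C #4 and 0.140, 0.148 and 0.154 CPM with sgKDM5C #5. With the sgKDM5D labels, the libraries had 1.20, 1.32 and 1.39 CPM (#2) and 0.713, 1.15 and 0.943 CPM (#4). All 6 libraries labelled sgKDM5D lay above sgCtrl (2.13 ± 0.35, adjusted p = 8.5e-05 and 1.68 ± 0.37, adjusted p = 4.5e-04). The second call was lost without sgCtrl replicate 1 (1.52), sgCtrl replicate 2 (1.73), sgCtrl replicate 3 (1.81), sgKDM5D #4 replicate 2 (1.49) or sgKDM5D #4 replicate 3 (1.68; adjusted p up to 0.0051). It was also lost without the 4 libraries that stand apart (1.71, adjusted p = 0.0012). Among the double mutants, *EPSTI1* was at 0.401, 0.709 and 0.629 CPM in sgKDM5C #4/sgKDM5D #2 and at 0.647, 1.08 and 1.56 CPM in sgKDM5C #4/sgKDM5D #4. The levels with sgKDM5C #5 were 0.613, 0.628 and 0.955 CPM in sgKDM5C #5/sgKDM5D #2 and 0.0810, 0.183 and 0.308 CPM in sgKDM5C #5/sgKDM5D #4. It rose in sgKDM5C #4/sgKDM5D #4 (1.90 ± 0.35, adjusted p = 1.2e-04). This call was lost without sgCtrl replicate 1 (1.75) or sgKDM5C #4/sgKDM5D #4 replicate 3 (1.55; adjusted p up to 0.0022) and without the 4 libraries that stand apart (1.60, adjusted p = 0.0062).

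*CMPK2*, a mitochondrial nucleotide kinase, and *RSAD2*, the viperin that makes a chain-terminating nucleotide, overlap on opposite strands of chromosome 2. *CMPK2* had 0.217, 0.137 and 0.270 CPM in sgCtrl, 1.74, 1.10 and 1.08 CPM with the sgKDM5D #2 label and 0.0892, 0.0350 and 0 CPM with the sgKDM5D #4 label. It had 0.869, 0.957 and 0.629 CPM in sgKDM5C #4/sgKDM5D #2 and 1.51, 2.02 and 2.44 CPM in sgKDM5C #4/sgKDM5D #4. It rose with the sgKDM5D #2 label (2.65 ± 0.35, adjusted p = 4.5e-06), in sgKDM5C #4/sgKDM5D #2 (1.99 ± 0.37, adjusted p = 1.9e-04) and in sgKDM5C #4/sgKDM5D #4 (3.26 ± 0.33, adjusted p = 1.5e-08). The call in sgKDM5C #4/sgKDM5D #2 was lost without sgCtrl replicate 1 (2.02), sgCtrl replicate 2 (1.75), sgKDM5C #4/sgKDM5D #2 replicate 1 (1.95) or sgKDM5C #4/sgKDM5D #2 replicate 2 (1.87; adjusted p up to 0.0026) and without the 4 libraries that stand apart (1.70, adjusted p = 0.0094). In the libraries labelled sgKDM5D #4 only 3 counts of *CMPK2* were seen against 16 in sgCtrl, a ratio of 5.07 (exact 95% interval 1.45 to 27.1) that was not called. *RSAD2* was called in sgKDM5C #4/sgKDM5D #4 alone, where it rose from 0.469 to 1.86 CPM (1.97 ± 0.32, adjusted p = 2.3e-05). Its 8 counts with sgKDM5C #5 against 37 in sgCtrl (ratio 5.20, exact 95% interval 2.38 to 12.9) were not called. Whether reads in the overlap of the genes were assigned by strand is not given in the sources used here.

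*SAMD9* and *SAMD9L*, which lie 12.0 kb apart, encode related proteins that block poxviruses and cell growth. *SAMD9L* had 13.9, 20.6 and 13.9 CPM in sgCtrl and fell with sgKDM5C #5 to 6.06, 6.82 and 6.06 CPM (-1.36 ± 0.13, adjusted p = 8.9e-09). It also fell in sgKDM5C #4/sgKDM5D #2 (-0.64 ± 0.12, adjusted p = 2.9e-04), sgKDM5C #5/sgKDM5D #2 (-0.94 ± 0.13, adjusted p = 1.3e-06) and sgKDM5C #5/sgKDM5D #4 (-1.74 ± 0.13, adjusted p = 1.1e-10). The first of these was lost without sgCtrl replicate 2 (-0.42), sgKDM5C #4/sgKDM5D #2 replicate 1 (-0.67), sgKDM5C #4/sgKDM5D #2 replicate 2 (-0.59) or sgKDM5C #4/sgKDM5D #2 replicate 3 (-0.67; adjusted p up to 0.0052). It was lost too without the 4 libraries that stand apart (-0.45, adjusted p = 0.0076) and after the neighbours' median was removed (-0.54, adjusted p = 0.0021). *SAMD9* was not called against sgCtrl in any population (-0.33 with sgKDM5C #5). The remaining effectors, *ISG20*, *PLSCR1* and *LGALS3BP*, and the *PARP9*, *DTX3L* and *PARP14* genes, whose products add ADP-ribose or ubiquitin to proteins at sites of damage and in antiviral signalling, were not called either.

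Of the transcription factors, *STAT2* had 34.1, 29.9 and 32.3 CPM in sgCtrl and rose in sgKDM5C #5/sgKDM5D #2 to 58.4, 67.0 and 55.6 CPM (0.91 ± 0.11, adjusted p = 1.3e-07). *IRF9* (0.374 to 1.04 CPM) and *IRF1* (51.5 to 74.9 CPM) were not called against sgCtrl in any population. In all, 15 of the 42 genes were never called against sgCtrl, with log2 fold changes from -0.93 to 1.42. Of their 120 values, 60 had an unadjusted p under 0.05. In each comparison with sgCtrl, 5389 to 9044 of all 17016 genes had such a p. The 15 genes were *OAS3*, *IFIT5*, *IFITM3*, *ISG15*, *USP18*, *MX1*, *SAMD9*, *ISG20*, *PLSCR1*, *LGALS3BP*, *PARP9*, *DTX3L*, *PARP14*, *IRF9* and *IRF1*.

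The sgRNAs against one gene were next compared with each other. Between the sgKDM5C sgRNAs, 0 genes were higher and 10 were lower with sgKDM5C #5 than with sgKDM5C #4 (all genes 0.740% and 2.97%), and the median log2 difference was -0.42. *HERC5* (-3.80 ± 0.22, adjusted p = 6.4e-13), *OAS1* (-3.59 ± 0.31, adjusted p = 2.8e-09), *IFITM2* (-3.29 ± 0.14, adjusted p = 1.6e-15) and *OAS2* (-3.13 ± 0.57, adjusted p = 2.4e-04) differed most. The last had a ratio of summed counts of 9.51 (exact 95% interval 3.82 to 30.5). The call of *OAS2* was lost without sgKDM5C #4 replicate 2 (-2.94), sgKDM5C #5 replicate 1 (-3.06), sgKDM5C #5 replicate 2 (-3.16) or sgKDM5C #5 replicate 3 (-3.20; adjusted p up to 0.003). *TRIM22* (-1.03 ± 0.10, adjusted p = 4.4e-08), *UBE2L6*, *XAF1*, *SAMD9L*, *IFIT3* and *IFI44* were the others. The call of *IFI44* was lost without sgKDM5C #4 replicate 2 (-0.68), sgKDM5C #4 replicate 3 (-0.73) or sgKDM5C #5 replicate 1 (-0.64; adjusted p up to 0.0028), and that of *SAMD9L* after the median of the neighbouring genes was removed (-0.61, adjusted p = 0.0016). Leaving out 1 library at a time gave 8 to 11 calls.

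Between the sgKDM5D labels, 5 genes were higher and 13 lower with #4 than with #2 (all genes 11.7% and 9.10%; median -0.46). The 5 higher genes are 11.9% of the 42, close to the share of all genes. *IFI27* (2.65 ± 0.25, adjusted p = 1.4e-09), *HERC5* (1.08 ± 0.15, adjusted p = 6.9e-07), *IFI27L2* (1.01 ± 0.12, adjusted p = 9.5e-08), *HERC6* (0.90 ± 0.13, adjusted p = 1.4e-06) and *UBE2L6* (0.61 ± 0.12, adjusted p = 8.7e-05) were higher. *CMPK2* (-4.87 ± 0.48, adjusted p = 2.8e-09), *RSAD2* (-2.96 ± 0.41, adjusted p = 8.0e-07), *OAS2* (-2.04 ± 0.30, adjusted p = 2.2e-06), *XAF1* (-1.87 ± 0.15, adjusted p = 3.8e-11) and *TRIM22* (-1.59 ± 0.12, adjusted p = 1.7e-11) were among the lower ones. For *CMPK2*, 98 counts stood against 3, a ratio of 32.6 (exact 95% interval 10.8 to 161). *HERC5*, *IFI27L2* and *OASL*, called higher with both labels, also differed between them. *OASL* was lower with #4 (-1.09, adjusted p = 7.8e-08). After the median of the 50 neighbouring genes was removed, the difference of *IFI27L2* was 0.40 (adjusted p = 0.0094), that of *HERC6* 0.53 (adjusted p = 0.0013) and that of *UBE2L6* 0.42 (adjusted p = 0.0049). *UBE2L6* was also below 1.5-fold without sgKDM5D #4 replicate 2 (0.57; adjusted p = 8.2e-04). The number of calls was 17 to 21 when 1 library at a time was left out.

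The double mutant populations were then compared with the populations that carry one of their sgRNAs, which asks what the added sgRNA goes with. Where sgKDM5C was added to sgKDM5D #2, 2 genes were higher and 11 lower in sgKDM5C #4/sgKDM5D #2 (all genes 4.14% and 2.96%), and again 2 higher and 11 lower in sgKDM5C #5/sgKDM5D #2 (all genes 6.10% and 4.22%). In both, *OASL* (-2.94 ± 0.15, adjusted p = 4.7e-14 and -2.01 ± 0.14, adjusted p = 1.9e-11), *IFI27L2* (-1.51 ± 0.14, adjusted p = 2.0e-09 and -1.0 ± 0.13, adjusted p = 1.0e-06) and *IFI44* (-1.18 ± 0.12, adjusted p = 2.7e-08 and -1.10 ± 0.12, adjusted p = 6.8e-08) were lower than in the libraries labelled sgKDM5D #2. *TRIM22* (0.85 ± 0.10, adjusted p = 5.3e-07 and 1.04 ± 0.10, adjusted p = 1.4e-08) and *XAF1* (1.10 ± 0.12, adjusted p = 5.8e-08 and 0.97 ± 0.12, adjusted p = 4.5e-07) were the 2 higher genes in each. After the neighbours' median was removed, the difference of *XAF1* in sgKDM5C #5/sgKDM5D #2 was 0.47 (adjusted p = 0.0035). These comparisons share the sgKDM5D #2 libraries.

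Where sgKDM5C was added to sgKDM5D #4, the directions were mixed. In sgKDM5C #4/sgKDM5D #4, 15 genes were higher and 8 lower than in the libraries labelled sgKDM5D #4 (all genes 10.7% and 12.3%). *CMPK2* (5.48 ± 0.44, adjusted p = 7.1e-11), *RSAD2* (3.39 ± 0.39, adjusted p = 3.8e-08), *XAF1* (3.32 ± 0.14, adjusted p = 9.4e-17), *TRIM22* (2.83 ± 0.12, adjusted p = 6.7e-17) and *DDX60* (1.60 ± 0.14, adjusted p = 1.7e-10) were higher. For *CMPK2*, 182 counts stood against 3, a ratio of 50 (exact 95% interval 16.8 to 245). *IFI27L2* (-2.79 ± 0.13, adjusted p = 1.6e-15), *IFI27* (-2.28 ± 0.24, adjusted p = 6.8e-09) and *OASL* (-1.29 ± 0.15, adjusted p = 3.1e-08) were lower. In sgKDM5C #5/sgKDM5D #4, 4 were higher and 16 lower (all genes 9.60% and 12.8%). The 4 were *XAF1* (1.86 ± 0.15, adjusted p = 3.2e-11), *TRIM22* (1.54 ± 0.12, adjusted p = 2.4e-11), *BST2* (1.28 ± 0.08, adjusted p = 4.3e-13) and *DDX60* (0.83 ± 0.14, adjusted p = 1.1e-05), and as a share of the 42 genes, 9.52%, they are at the 9.60% of all genes. The comparisons with sgKDM5D #4 and that of sgKDM5D #4 with sgCtrl share the sgKDM5D #4 libraries. *IFITM2* (-4.83 ± 0.18, adjusted p = 5.0e-18), *HERC5* (-4.56 ± 0.20, adjusted p = 2.5e-16) and *IFI27* (-4.36 ± 0.30, adjusted p = 2.0e-12) differed most among the 16. After the neighbours' median was removed, that of *DDX60* in sgKDM5C #5/sgKDM5D #4 was 0.32 (adjusted p = 0.059).

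Where an sgKDM5D sgRNA was added to sgKDM5C, 0 of the 42 genes differed between sgKDM5C #4/sgKDM5D #2 and sgKDM5C #4 (0.264% of all genes did). Of the 42, 6 had an unadjusted p under 0.05 in edgeR (1397 of all 17016 genes did), while DESeq2 also called 0. Of the 42 genes, 10 were higher and 0 lower in sgKDM5C #4/sgKDM5D #4 than with sgKDM5C #4 (all genes 2.32% and 1.25%). *CMPK2* (2.31 ± 0.28, adjusted p = 1.0e-06), *OAS2* (2.25 ± 0.30, adjusted p = 3.2e-06), *OAS1* (1.73 ± 0.18, adjusted p = 5.6e-08) and *IFIT1* (1.01 ± 0.12, adjusted p = 4.8e-07) were called in every fit that left out 1 library. *RSAD2* (1.97), *MX2* (1.81), *IFI27* (1.70), *OASL* (0.87), *UBE2L6* (0.68) and *IFI44* (0.61) were lost in 1 or more of these fits. Without the 4 libraries that stand apart, *MX2* (1.66, adjusted p = 0.0028), *IFI27* (1.30, adjusted p = 0.0036) and *IFI44* (0.48, adjusted p = 0.011) were lost too. Between 4 and 11 genes were called in this comparison when 1 library at a time was left out. In sgKDM5C #5/sgKDM5D #2, 21 were higher and 0 lower than with sgKDM5C #5 (all genes 5.89% and 2.67%; median 0.87). Among them were *OAS1* (4.68 ± 0.29, adjusted p = 1.1e-11), *OAS2* (4.27 ± 0.51, adjusted p = 4.2e-07), *IFI44L* (1.96 ± 0.26, adjusted p = 1.6e-06), *IFITM2* (1.78 ± 0.15, adjusted p = 1.4e-09) and *UBE2L6* (1.13 ± 0.13, adjusted p = 2.3e-07). For *OAS2*, 87 counts stood against 5, a ratio of 20.6 (exact 95% interval 8.50 to 65.1). In sgKDM5C #5/sgKDM5D #4, by contrast, 0 were higher and 2 lower (all genes 0.664% and 0.599%): *IFITM2* (-1.92 ± 0.21, adjusted p = 7.1e-07) and *GBP2* (-0.78 ± 0.14, adjusted p = 4.3e-04). The call of *GBP2* was lost without sgKDM5C #5 replicate 1 (-0.78), sgKDM5C #5 replicate 3 (-0.72), sgKDM5C #5/sgKDM5D #4 replicate 1 (-0.75), sgKDM5C #5/sgKDM5D #4 replicate 2 (-0.83) or sgKDM5C #5/sgKDM5D #4 replicate 3 (-0.77; adjusted p up to 0.0048), and after the neighbours' median was removed (-0.67, adjusted p = 0.0023). The double populations sgKDM5C #5/sgKDM5D #2 and sgKDM5C #5/sgKDM5D #4 were not tested against each other.

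**Figure D4:**
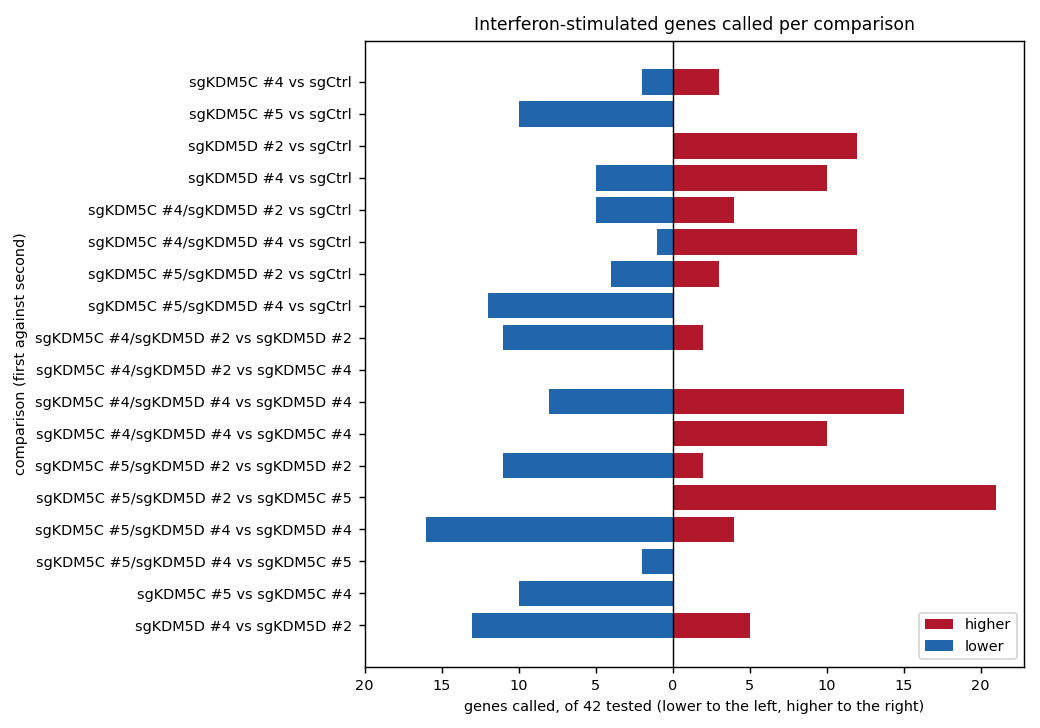
Number of the 42 genes called in each of the 18 comparisons of 2 populations (rows, first against second), with genes called lower to the left of 0 in blue and higher to the right in red. The most calls are those of sgKDM5C #4/sgKDM5D #4 against sgKDM5D #4 (15 higher, 8 lower), followed by sgKDM5C #5/sgKDM5D #2 against sgKDM5C #5 (21 higher, 0 lower) and sgKDM5C #5/sgKDM5D #4 against sgKDM5D #4 (16 lower, 4 higher), and sgKDM5C #4/sgKDM5D #2 against sgKDM5C #4 has none.

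Whether the log2 changes of the single populations add up to those of the double populations was tested with an interaction averaged over the sgRNAs. It was positive for 3 genes and negative for 4 (all genes 3.21% and 3.67%). *XAF1* (1.61 ± 0.13, adjusted p = 4.3e-10), *OAS1* (1.46 ± 0.27, adjusted p = 1.7e-04) and *TRIM22* (0.97 ± 0.12, adjusted p = 3.5e-07) were higher in the double mutants than the sum of the single changes. *HERC5* (-1.54 ± 0.22, adjusted p = 4.7e-06), *IFI27L2* (-1.45 ± 0.14, adjusted p = 1.3e-08), *IFI44* (-0.81 ± 0.14, adjusted p = 4.6e-05) and *HERC6* (-0.71 ± 0.14, adjusted p = 4.0e-04) were lower. The interaction of *OAS1* did not pass without sgCtrl replicate 2 (1.34, adjusted p = 0.0012) or without the 4 libraries that stand apart (1.26, adjusted p = 0.0024). That of *HERC6* did not pass without sgCtrl replicate 1 (-0.65, adjusted p = 0.0029) or sgCtrl replicate 3 (-0.71, adjusted p = 0.0019). Neither passed after the neighbours' median was removed (1.23, adjusted p = 0.0013, and -0.62, adjusted p = 0.0019). For each of these 7 genes the sgKDM5C sgRNAs, the sgKDM5D labels or both differed from each other, so the average describes neither sgRNA alone.

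Other genes of the interferon pathway were taken from a list of 67 (ligands, receptors, kinases, STAT and IRF factors, negative regulators and further targets), of which 57 were tested. None of the 9 interferon ligands on it had enough counts to be tested. Against sgCtrl, 3 of the 57 rose and 0 fell with sgKDM5C #4 (all genes 3.21% and 1.77%), and 0 and 5 with sgKDM5C #5 (all genes 2.03% and 2.97%). With the sgKDM5D #2 label none rose or fell (0 and 0 in edgeR, with 28 at an unadjusted p under 0.05), against 1.89% and 1.34% of all genes. Of all 17016 genes, 5767 had such an unadjusted p there. With the sgKDM5D #4 label 5 rose and 5 fell (8.77% each), which is near the 10.7% and 7.44% of all genes. The double populations had 3 higher and 1 lower (sgKDM5C #4/sgKDM5D #2, all genes 3.83% and 2.23%), 4 and 1 (sgKDM5C #4/sgKDM5D #4, 5.86% and 3.24%), 5 and 3 (sgKDM5C #5/sgKDM5D #2, 7.92% and 4.77%) and 0 and 4 (sgKDM5C #5/sgKDM5D #4, 3.30% and 3.87%). These shares of the 57 genes ranged from 0% to 8.77%. Of the receptor genes, *IFNAR1*, *IFNAR2*, *IFNGR1* and *IL10RB*, at 58.5, 21.1, 25.6 and 22.9 CPM in sgCtrl, were not called in any population. *IFNLR1*, the receptor subunit for type III interferons, had 4.64 CPM in sgCtrl and fell with sgKDM5C #5 to 1.38 CPM (-1.75 ± 0.18, adjusted p = 6.1e-08) and in sgKDM5C #5/sgKDM5D #4 to 0.983 CPM (-2.23 ± 0.20, adjusted p = 1.8e-09). It also fell in sgKDM5C #5/sgKDM5D #2 (-0.94 ± 0.17, adjusted p = 9.1e-05) and sgKDM5C #4/sgKDM5D #4 (-0.82 ± 0.17, adjusted p = 4.1e-04). *IFNGR2*, a subunit of the interferon gamma receptor, rose from 27.1 CPM to 45.3 CPM in sgKDM5C #4/sgKDM5D #2 (0.74 ± 0.08, adjusted p = 4.8e-08) and 42.9 CPM in sgKDM5C #4/sgKDM5D #4 (0.67 ± 0.08, adjusted p = 2.1e-07). *IRF7*, the factor that amplifies interferon production, had 3.17 CPM in sgCtrl and rose in 4 populations, including sgKDM5C #4 (0.95 ± 0.15, adjusted p = 2.9e-05) and the sgKDM5D #4 label (1.36 ± 0.15, adjusted p = 1.8e-08). It is named after its values were seen. The other genes of this list that rose with the sgKDM5D #4 label were *PML*, *SOCS1*, *SOCS3* and *PTPN2*. Those that fell there were *EIF2AK2*, *APOL1*, *APOL2*, *DDX60L* and *TMEM140*.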

How the data were processed

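RNA of 27 libraries (9 populations of 786-O cells, 3 each) was prepared with a stranded kit and sequenced by the authors, and the deposited values are raw gene counts per library for 57773 Ensembl identifiers. Per the labels, Trimmomatic 0.38 and STAR 2.5.2b were used with GRCh37, and the counting tool and its strand setting are not given in the sources used here. From these counts, TMM-scaled CPM and edgeR quasi-likelihood tests (edgeR 4.0.16, R 4.3.3) with 1 mean per population were computed over all 27 libraries, for the 17016 genes with at least 120 counts in all. Tests were two-sided and p-values were adjusted by the Benjamini-Hochberg method across the tested genes. The common biological coefficient of variation was 0.0973. Standard errors were taken from the fold change and its F statistic. In 19 comparisons, calls required an adjusted p below 0.001 together with a change above 1.5-fold. Symbols and positions were taken from the GENCODE annotation lifted to GRCh37.

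On simulated data for the comparison of sgKDM5D #2 with sgCtrl (17016 genes), 181 of 200 genes changed 2-fold were recovered and 0 unchanged genes were called. The changed genes were drawn from those with a mean over 1 CPM in sgCtrl, and no simulated library stood apart. The simulation therefore does not cover changes of genes below that level or the effect of such libraries. Same-numbered libraries did not deviate together (median correlation -0.0561, and 0 of 27 libraries correlated best with their own number), so replicate numbers were not treated as pairs. Values of every library are given for genes with calls of one direction in the 2 populations of 1 genotype or in all 4 double populations and for genes called in opposite directions in different populations (16 genes), and for a few others where a result turns on them. Alternatives were DESeq2 1.42.0, RLE factors, no filter, an adjusted p under 0.05, fits on the populations compared only, the replicate number as a block, leaving out each library, and removal of the median of the 50 nearest tested genes. The treatment of 4 libraries that stand apart was added after the data were seen. The members and lists were chosen with earlier results of these data known. One item of the pathway list is not reported here.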

Additional observations from a re-analysis of the deposited data

Results flagged for a closer look

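Effects that differed between sgRNAs against the same gene, each tested directly in the edgeR fit, are collected here as log2 differences at an adjusted p under 0.001. With sgKDM5C #5 compared with sgKDM5C #4, 10 genes differed and all were lower: *HERC5* (-3.80), *OAS1* (-3.59), *IFITM2* (-3.29), *OAS2* (-3.13), *TRIM22* (-1.03), *UBE2L6* (-0.96), *XAF1* (-0.90), *SAMD9L* (-0.84), *IFIT3* (-0.78) and *IFI44* (-0.74). *HERC5*, *IFITM2*, *XAF1* and *TRIM22* had means above sgCtrl with sgKDM5C #4, whereas *OAS1* and *OAS2* had means below it with both sgRNAs.

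Between the sgKDM5D labels (#4 compared with #2), 18 genes differed. *IFI27* (2.65), *HERC5* (1.08), *IFI27L2* (1.01), *HERC6* (0.90) and *UBE2L6* (0.61) were higher with #4. The lower genes were *CMPK2* (-4.87), *RSAD2* (-2.96), *OAS2* (-2.04), *MX2* (-1.96), *XAF1* (-1.87), *TRIM22* (-1.59), *GBP2* (-1.41), *BST2* (-1.32), *OAS1* (-1.27), *OASL* (-1.09), *DDX60* (-1.08), *USP18* (-1.07) and *IFITM2* (-0.74). The call of *MX2* was lost without sgKDM5D #2 replicate 1 (-1.84), sgKDM5D #2 replicate 3 (-1.97), sgKDM5D #4 replicate 1 (-1.63) or sgKDM5D #4 replicate 2 (-1.70; adjusted p up to 0.0054), and that of *DDX60* after the median of the 50 neighbouring genes was removed (-0.50, adjusted p = 0.0039).

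Averaged over the sgRNAs, the interaction between the sgKDM5C and sgKDM5D changes passed for 7 genes, with *XAF1* (1.61), *OAS1* (1.46) and *TRIM22* (0.97) positive and *HERC5* (-1.54), *IFI27L2* (-1.45), *IFI44* (-0.81) and *HERC6* (-0.71) negative.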

How the results depend on the processing

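Of the 220 calls made in 19 comparisons, none changed direction under any alternative. All 220 held with RLE factors, with DESeq2 and at an adjusted p under 0.05, 219 without the filter on low counts, 217 with the replicate number as a block and 217 with a term for the 4 libraries that stand apart. Without those libraries 198 held, and after the median of the 50 neighbouring genes was removed 189 held. Fits on only the populations compared, which cannot be made for the interaction, kept 164 of 213. In each fit that left out 1 library 204 to 218 held, and 169 held in all 27. Calls lost with the block were *IFIT2* with the sgKDM5D #2 label (0.61), *IFI44* in sgKDM5C #4/sgKDM5D #4 against sgKDM5C #4 (0.61) and *MX1* in sgKDM5C #5/sgKDM5D #2 against sgKDM5C #5 (1.06). That of *MX1* was also lost without the 4 libraries that stand apart (0.86, adjusted p = 0.0076). Same-numbered libraries did not deviate together, which does not show whether they were prepared together.

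The number of genes called moved by over 1.5 times in these cases. In fits on the compared populations alone, it was 5 instead of 10 for sgKDM5C #5, 6 instead of 12 for sgKDM5D #2, 1 instead of 9 for sgKDM5C #4/sgKDM5D #2 and 7 instead of 13 for sgKDM5C #4/sgKDM5D #4 against sgCtrl, 13 instead of 21 for sgKDM5C #5/sgKDM5D #2 and 1 instead of 2 for sgKDM5C #5/sgKDM5D #4 against sgKDM5C #5. Such fits hold fewer samples. At an adjusted p under 0.05 it was 12 instead of 7 for sgKDM5C #5/sgKDM5D #2 against sgCtrl, 4 instead of 2 for sgKDM5C #5/sgKDM5D #4 against sgKDM5C #5, 16 instead of 10 between the sgKDM5C sgRNAs and 11 instead of 7 for the interaction. Without the 4 libraries that stand apart it was 3 instead of 9 for sgKDM5C #4/sgKDM5D #2 against sgCtrl, and the cause was not tested. After the neighbours' median was removed it was 1 instead of 2 for sgKDM5C #5/sgKDM5D #4 against sgKDM5C #5.

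When 1 library was left out at a time, the counts against sgCtrl ranged from 4 to 5 (sgKDM5C #4), 9 to 12 (sgKDM5C #5), 10 to 13 (sgKDM5D #2), 12 to 15 (sgKDM5D #4), 6 to 9 (sgKDM5C #4/sgKDM5D #2), 10 to 13 (sgKDM5C #4/sgKDM5D #4), 5 to 7 (sgKDM5C #5/sgKDM5D #2) and 9 to 13 (sgKDM5C #5/sgKDM5D #4). They ranged from 4 to 11 for sgKDM5C #4/sgKDM5D #4 and from 15 to 22 for sgKDM5C #5/sgKDM5D #2 against their sgKDM5C population, from 1 to 2 for sgKDM5C #5/sgKDM5D #4 against sgKDM5C #5 and from 6 to 8 for the interaction. Depth limits the genes under about 1 CPM, such as *OAS2*, *CMPK2*, *RSAD2*, *MX2* and *EPSTI1*, whose populations held as few as 3 counts.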
